A study of Mus musculus with 7 samples.

Results

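Natural killer (NK) cells of the stromal vascular fraction, the cells of fat tissue other than adipocytes, were followed in inguinal subcutaneous adipose tissue of old and young female C57BL/6N mice. The old group was 18 months old (3 libraries) and the young group 11 to 12 weeks old (4 libraries), and no genetic change or treatment is given for either group. Digested tissue freed of red blood cells was sequenced as single cells with the 10x Genomics 3' v3 chemistry. No label states if 1 mouse or several went into a library, so p-values measure the spread between libraries. NK cells were selected on their own UMI counts (unique molecular identifiers, each standing for 1 captured RNA molecule): at least 1 UMI of the receptor genes Ncr1 or Klrb1c, at least 1 of the granule gene Nkg7, and none of Cd3d, Cd3e, Cd79a, Pdgfra and C1qa, which mark T cells, B cells, progenitors and macrophages. Of 39566 kept cells, 425 met this gate, 188 from old and 237 from young libraries.

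NK cells are innate lymphocytes that kill infected or transformed cells without prior priming. Activating and inhibitory receptors on their surface are read against each other, and a net activating signal releases granules that carry perforin and granzymes. They also secrete interferon gamma and chemokines. In adipose tissue, NK cells and the related tissue-resident group 1 innate lymphoid cells (ILC1) are known for their interplay with macrophages. Conventional NK cells depend on the transcription factor Eomes, while ILC1 carry the adhesion receptor CD49a (Itga1) and the chemokine receptor CXCR6.

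The libraries held 52336665 to 99516882 UMIs. The gate found 14, 51 and 123 cells in the old libraries (replicates 1 to 3), against 28, 121, 27 and 61 in the young libraries (replicates 1 to 4), so old replicate 1 rests on very few cells. The median NK cell held 6863, 5658 and 5833 UMIs in the old libraries, against 5656, 6623, 9492 and 9498 in the young libraries. Pairs of libraries shared 2 to 19 kept barcodes and 0 NK barcodes. Of the gated cells, 315 had UMIs of both receptors, 57 of Ncr1 only and 53 of Klrb1c only. Just inside the gate, 42 cells had a single receptor UMI and 9 a single Nkg7 UMI. Just outside it, 183 cells met every other condition with no receptor UMI, 18 lacked only Nkg7 and 26 were left out for 1 Cd3 UMI.

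The gated cells carried NK genes that the gate did not read, while T cell genes were mixed: several defining ones were at or near 0 and others were not. Levels are summed UMIs scaled to a common total (CPM, by the usual abbreviation), given here with no test because the cells were picked by their own counts. Granzyme A (Gzma) averaged 5269 ± 1725 CPM over the 7 libraries, against 145 ± 162 in CD8 T cells and 25.8 ± 19.9 in all other kept cells (SD, n = 7). CD8 T cells were gated on Cd3, Cd8 and Nkg7 UMIs with no NK receptor UMI. The Ly49 receptor gene Klra8 averaged 484 CPM in NK cells, against 0.574 in CD8 T cells. The lectin-like receptor gene Klre1 averaged 477 CPM, against 26.0 in CD8 T cells. All 18 NK marker genes outside the gate were detected, and 17 of them were higher in NK cells than in CD8 T cells in all 7 libraries. The exception was Eomes, which was higher in 5 of 7. Of the 13 T cell markers, Cd8b1 and Themis had 0 UMIs over all 425 cells, which allows a total of up to 3 UMIs, Cd4 and Cd8a had 1 each, Cd5 had 2 and Cd6 had 4. Cd28, a costimulatory receptor gene, averaged 117 CPM in NK cells, against 393 in CD8 T cells and 38.1 in all other kept cells. Lat, Icos and Lef1 averaged 61.4, 35.2 and 25.6 CPM in NK cells, above the 33.2, 17.8 and 13.6 CPM of all other kept cells and below CD8 T cells. Of 8 ILC2 markers, the cytokine genes Il5 and Il13 also had 0 UMIs, but Il5 averaged only 0.514 CPM in all other kept cells. Il1rl1, Areg, Hs3st1 and Calca averaged 1.74 to 10.6 CPM, each below all other kept cells. Gata3 averaged 92.9 CPM in NK cells, against 63.8 in CD8 T cells and 89.9 in all other kept cells. Klrg1 averaged 97.7 CPM, against 18.3 and 3.44.

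**Figure D1:**
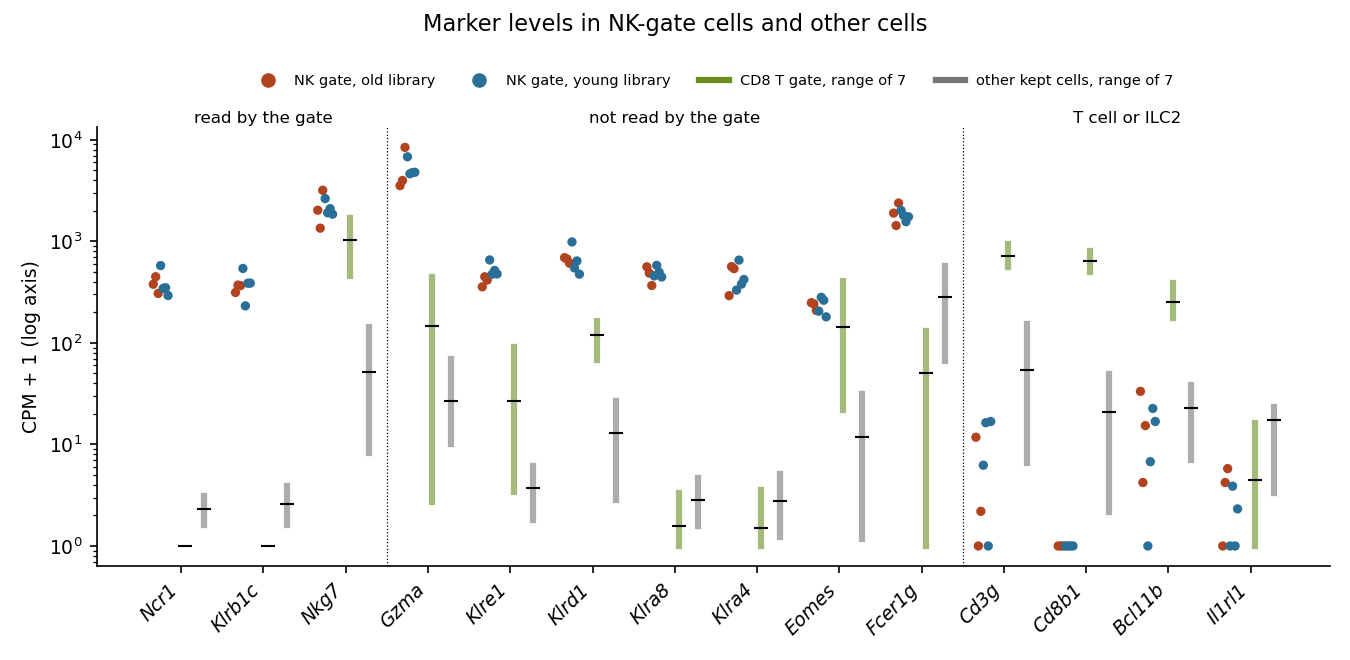
Levels of marker genes (CPM + 1, log axis) in NK-gate cells of each library (points, old and young), with the range over 7 libraries in CD8 T cells and in all other kept cells (bars, tick at the mean). NK genes not read by the gate, such as Gzma and Klra8, stood well above both, and Cd8b1 was at 0 in all 7 NK libraries.

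A small set of gated cells carried large amounts of RNA of other cell types. These mixed cells were set apart, by limits chosen after the data were seen, as cells with at least 50 UMIs over the endothelial and progenitor marker lists or at least 10 UMIs of Cd74, an antigen presentation gene. They numbered 24: 0, 0 and 4 in the old libraries, against 2, 10, 2 and 6 in the young libraries. That was 2.13% of old and 8.44% of young NK-gate cells. The 15 with stromal UMIs held 12864 of the 15642 endothelial and progenitor UMIs of all gated cells, and 11 of the 24 were marked as doublets by Scrublet. The summed level of the 7 endothelial markers was 689 to 2285 CPM in the old libraries, against 2760 to 5726 in the young libraries, with no overlap. Without the mixed cells it was 147 to 903 CPM in the old libraries, against 169 to 723 in the young libraries, and the ages overlapped. The 10 progenitor markers summed to 153 to 722 CPM in the old libraries, against 739 to 1984 in the young libraries, and without mixed cells to 145 to 722 in old, against 443 to 905 in young libraries. Mixed cells were picked partly on UMIs of these same endothelial and progenitor lists, and more of them were young. The lower sums and smaller age difference without them follow from that choice and are no separate test. The 13 T cell markers summed to 278 to 411 CPM in the old libraries, against 115 to 278 in the young libraries, with Cd8b1 and Themis at 0 in both ages, and their part in the results below was not tested.

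**Figure D2:**
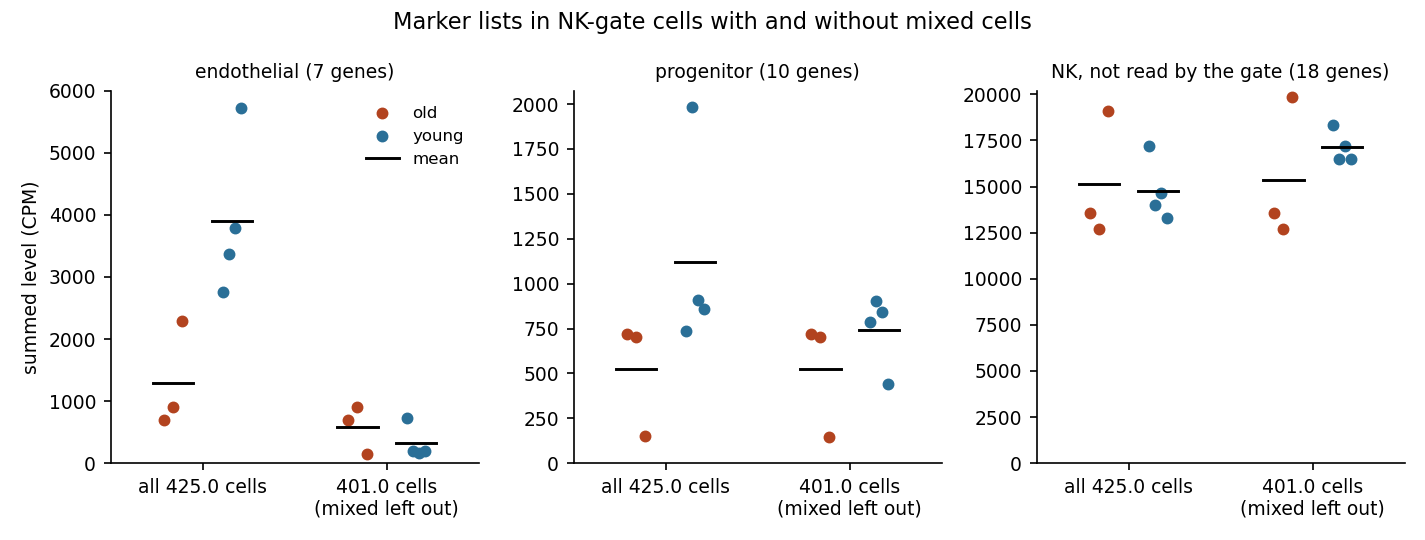
Summed CPM of the endothelial, progenitor and NK marker lists in NK-gate cells of each library (points; line at the mean), with all 425 cells and with the 401 cells left without mixed cells. Without mixed cells the endothelial sum was 147 to 903 CPM in old and 169 to 723 CPM in young libraries, and the NK sum 12698 to 19850 CPM in old and 16468 to 18329 CPM in young libraries. Mixed cells were picked partly by the endothelial and progenitor lists themselves, so the lower sums of these lists follow from that choice.

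The first comparison asked whether NK cells took a different share of the tissue with age. They made up 0.211% (95% exact binomial interval 0.116 to 0.354), 0.684% (0.510 to 0.899) and 2.00% (1.67 to 2.39) of kept cells in the old libraries. In the young libraries they made up 0.597% (0.397 to 0.861), 2.05% (1.70 to 2.44), 0.941% (0.621 to 1.37) and 1.04% (0.795 to 1.33). The ages overlapped, with means of 0.966 ± 0.929% in old and 1.16 ± 0.624% in young libraries (SD, n = 3 and 4). The exact permutation test over libraries (35 label orders, 2-sided) gave p = 0.486 (adjusted over 5 share comparisons, 0.810). These intervals cover counting error only. The old intervals did not overlap each other. Young replicate 2 lay above the other young libraries, whose intervals overlapped.

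Against other lymphocytes the NK share was lower in old libraries, but the test did not reach 0.05. NK cells were 1.37%, 4.99% and 4.73% of the cells in the NK, T and B gates in the old libraries, against 16.8%, 24.6%, 5.28% and 12.2% in the young libraries. All 3 old values lay under all 4 young values, the nearest pair being old replicate 2 and young replicate 3. This order depended on the setting. With the stricter gate old replicate 2 (4.62%) lay above young replicate 3 (4.35%), and without mixed cells it did too (4.99%, against 4.91%). The same pair changed order with stricter cells (9.93%, against 8.65%) and with gates read on thinned cells (5.56%, against 4.70%). The log2 share was lower by 2.00 on average in old libraries (exact permutation p = 0.0571, adjusted 0.286; the smallest p this design allows is 0.0286). The T cell gate made up 11.9%, 10.0% and 19.2% of kept cells in the old libraries, against 1.39%, 4.33%, 10.6% and 6.10% in the young libraries. B cells were 21.2% of kept cells in old replicate 3 and between 1.41% and 6.27% in the other 6 libraries. With B cells left out of the denominator the difference was -1.95 (exact permutation p = 0.0857). The ages then overlapped, with old replicate 3 (9.46%) above young replicate 3 (8.16%). Of cells with a Ptprc UMI, the general leukocyte gene, NK cells were 0.472%, 1.17% and 3.61% in the old libraries, against 5.15%, 5.83%, 1.96% and 3.30% in the young libraries (difference in log2 share -1.56, exact permutation p = 0.143, adjusted 0.357). Shares of one total are tied to each other, so fewer NK cells and more T cells cannot be told apart here.

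**Figure D3:**
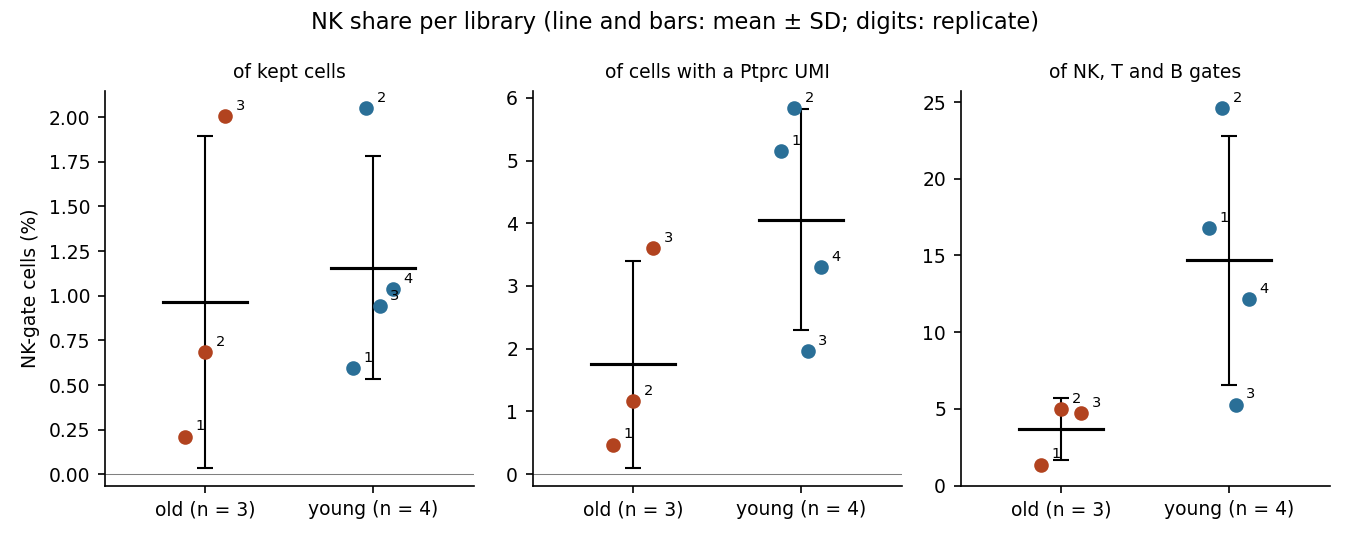
NK-gate cells as a percentage of kept cells, of cells with a Ptprc UMI and of the NK, T and B gates (points: libraries with replicate number; line and bars: mean ± SD). The old libraries lay below all young libraries in the lymphocyte share as drawn, and overlapped with them in the other 2 shares. The lymphocyte shares also overlapped in several alternatives, such as the stricter gate and leaving out mixed cells.

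By summed UMIs, most gated cells leaned to a conventional NK list over an ILC1 list at both ages. Each cell was thinned to 2000 UMIs, which left out 8 shallower cells (5 old, 3 young), and its UMIs over a conventional NK list were set against those over an ILC1 list. Of 417 cells, 383 leaned to conventional NK, 26 to ILC1 and 8 were tied, and 23 cells lay within 1 UMI of the divide. The lists differ in abundance, since the conventional list holds Gzma. Library medians per cell were 12 to 30 UMIs for the conventional list, against 0 to 0.5 for the ILC1 list. The lean therefore cannot tell cell type from list abundance. The conventional share averaged 89.7 ± 3.78% in old and 89.4 ± 5.06% in young libraries (SD, n = 3 and 4; exact permutation p = 0.914, adjusted 0.914). The ILC1-leaning share was 7.14%, 7.84% and 5.08% in the old libraries, against 7.41%, 2.52%, 7.41% and 13.1% in the young libraries (exact permutation p = 0.714, adjusted 0.893). The full counts gave the opposite direction for both shares, so no order is read from them. Of the thinned cells, 142 had an Eomes UMI alone, 14 had an Itga1 or Cxcr6 UMI alone, and 1 had both. Itga1 and Cxcr6 were so rare that these counts cannot show if they and Eomes exclude each other. Itga1 itself was seen in 1.44% of thinned NK cells and 4.34% of thinned CD8 T cells, and Cxcr6 in 2.88% of NK cells and 9.96% of CD8 T cells.

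Cd27, a costimulatory receptor of less mature NK cells, and Itgam (CD11b), an integrin of mature ones, were seen in 24.5% and 18.7% of thinned cells. Over all libraries 84 thinned cells had Cd27 alone, 60 Itgam alone, 18 both and 255 neither. Most cells had neither, so no split by maturity is read from these counts. Itgam had 81.2, 164 and 93.5 CPM in the old libraries, against 176, 83.7, 60.7 and 57.4 CPM in the young libraries. Cd27 had 132, 160.4 and 168 CPM in the old libraries, against 51.6, 126, 296 and 284 CPM in the young libraries. Young replicate 1 was thus high in Itgam and low in Cd27, and young replicates 3 and 4 were the reverse. Neither gene passed the age test (edgeR adjusted p = 0.828 for Itgam and 0.891 for Cd27).

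The second comparison asked which genes changed with age inside the gate. UMIs were summed per library and tested with edgeR's quasi-likelihood test with Benjamini-Hochberg adjustment over 5076 genes, and the gate's own genes are not reported from it. At an adjusted p under 0.05, 4 genes rose in old libraries (0.0788% of genes tested) and 65 fell (1.28%). Of the 65 that fell, 46 were highest in endothelial cells and 16 in progenitors among the other gates, and all 65 were higher in some other gate than in NK cells. Only 11 of the 65 still passed the expression filter without the 24 mixed cells, and 1 of these was called. Mixed cells were picked partly on endothelial and progenitor UMIs. The loss of such genes without them, here and below, follows in part from that choice and is no separate test. Over all genes, leaving out mixed cells gave 0 that rose (0.0%) and 1 that fell (0.0221%) of 4527, with 349 at an unadjusted p under 0.05, and 8.35% of those genes did not overlap between ages. Without mixed cells and with a library left out as well, the count was 0 without old replicate 1 and without young replicates 2, 3 or 4, 1 without old replicate 2, 8 without old replicate 3 and 11 without young replicate 1. The count also moved with single libraries: it was 21 without old replicate 1, 12 without old replicate 2, 13 without old replicate 3, 110 without young replicate 1 and 30 without young replicate 4, against 69 with all 7. Thinning every cell to 2000 UMIs left 1772 genes and 0 calls by edgeR (86 at an unadjusted p under 0.05). Libraries did not overlap between ages for 11.0% of genes tested.

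The rises included T-bet (Tbx21; chromosome 11, 97098071 to 97115331, mm10), a transcription factor that drives NK maturation and interferon gamma. It had 264, 302 and 252 CPM in the old libraries, against 145, 138, 108 and 129 CPM in the young libraries. Each old library was above each young library, and the fold change was 1.05 ± 0.24 (log2, SE; edgeR adjusted p = 0.0451). Zfp36l2 (chromosome 17, 84183931 to 84187947), which binds AU-rich elements of mRNAs and speeds their decay, had 3024, 2545 and 2407 CPM in the old libraries, against 806, 1582, 1333 and 1208 CPM in the young libraries. Its log2 fold change was 1.08 ± 0.22 (edgeR adjusted p = 0.0248). Both kept their direction in 17 of 17 alternatives, but neither call held without the mixed cells, where the log2 fold changes were 0.83 (edgeR adjusted p = 0.387) for Tbx21 and 0.92 (0.331) for Zfp36l2. Leaving out any single old library, or young replicate 3 or 4, also ended both calls, and leaving out young replicate 2 ended that of Tbx21. Both were also lost without doublets, with stricter limits on cells and on thinned counts, and Tbx21 with the stricter gate. In all, Tbx21 passed in 4 and Zfp36l2 in 7 of 17 alternatives, with an adjusted p of at most 0.807 and 0.801. The other rises, Retnla and Cxcl2, were 24.3 times higher in macrophages and 132 times higher in neutrophils than in NK cells. Retnla, a secreted product of alternatively activated macrophages, had 112, 222 and 653 CPM in old NK cells, against 25.8, 63.3, 36.9 and 44.0 CPM in young NK cells. Its log2 fold change was 2.92 ± 0.45 with all cells (edgeR adjusted p = 0.00577) and 1.15 without the mixed cells (0.600). Its call was also lost without old replicate 3.

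Among genes whose libraries did not overlap between ages and that were not over 10 times higher in another gate, the largest falls were those of Podxl, Tshz2, Nfib, Rsad2, Hist1h2ae, Galnt15, Cxcl12, Slfn5, Robo4 and Cav1. Their log2 fold changes lay between -4.53 and -3.01. Podxl and Robo4 are known from vascular endothelium, Cav1 coats caveolae and Cxcl12 is a stromal chemokine. Cav1 had 10.1, 24.7 and 20.04 CPM in the old libraries, against 155, 144, 116 and 231 CPM in the young libraries, and was 7.55 times higher in the endothelial gate than in NK cells. Beside it the endothelial marker sum moved the same way, as given above. Without mixed cells, 9 of these 10 genes did not reach the expression filter, and the exception was Hist1h2ae. That loss follows in part from how mixed cells were picked. The matrix genes Postn, Sparc and Serpinh1, all over 10 times higher in progenitors, fell too. Postn was the single gene called without mixed cells, and that call was lost in 5 of 7 cases where a library was left out as well. It had 10.8, 19.7 and 6.15 CPM in old libraries, against 95.4, 76.9, 72.9 and 70.3 CPM in young libraries (log2 fold change -2.77 ± 0.44, edgeR adjusted p = 0.0427). It was 78.0 times higher in progenitors than in these NK cells, and its origin in the NK-gate sums was not tested. With all cells its log2 fold change was -3.20 (edgeR adjusted p = 0.00419), and -2.48 without old replicate 3 (0.0633).

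No gene of the cytotoxic machinery passed the age test, beside 0.0788% of all genes tested that rose and 1.28% that fell. With calls this rare, 0 calls in a list given here or below do not set its members apart from other genes. Gzma, a serine protease of the granules, had 3329, 3810 and 9415 CPM in the old libraries, against 6703, 4689, 4653 and 4834 CPM in the young libraries (log2 fold change 0.06 ± 0.29, edgeR adjusted p = 0.978). Old replicate 3 was the highest of all 7 libraries and the other old libraries were the lowest. Granzyme B (Gzmb) had 457, 346 and 1260 CPM in old libraries, against 1699, 749.6, 715 and 763 CPM in young libraries (-0.50 ± 0.41, edgeR adjusted p = 0.775). Perforin (Prf1), which forms the pore that lets granzymes in, averaged 147 ± 74.8 CPM in old and 118 ± 29.1 CPM in young libraries (edgeR adjusted p = 0.934). A Gzma UMI was found in 57.1%, 66.7% and 74.6% of thinned old NK cells, against 81.5%, 85.7%, 85.2% and 73.8% of young ones. For Gzmb the shares were 28.6%, 35.3% and 55.1% in old, against 77.8%, 51.3%, 51.9% and 55.7% in young libraries. For Prf1 they averaged 16.2% in old and 20.1% in young libraries. The ages overlapped for each of these genes, and no test was run on these shares. Of 15 tested members of the granule and death ligand list 0 rose and 0 fell. The members nearest to a call were Srgn, the core protein of granule proteoglycans (adjusted p = 0.516), and Unc13d, a factor for granule release (0.673). The list's median log2 fold change was 0.34, against 0.02 over all genes tested. Without mixed cells these medians were 0.21 and 0.02.

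No NK cytokine or chemokine gene passed either. Interferon gamma (Ifng) had 173, 145 and 309 CPM in the old libraries, against 217, 137, 103 and 70.7 CPM in the young libraries (0.75 ± 0.36, edgeR adjusted p = 0.511). Ccl5, a chemokine that draws T cells and monocytes, had 10240, 7857 and 19528 CPM in old libraries, against 9646, 8683, 7693 and 6661 CPM in young libraries (0.59 ± 0.25, edgeR adjusted p = 0.408). Both groups overlapped for these genes. Ccl4 had a log2 fold change of 0.84 (edgeR adjusted p = 0.361), Ccl3 of 0.38 (0.782) and the dendritic cell attractant Xcl1 of -0.04 (0.987). Of 8 tested members of this list 6 were higher and 2 lower in old libraries, and 0 passed.

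**Figure D4:**
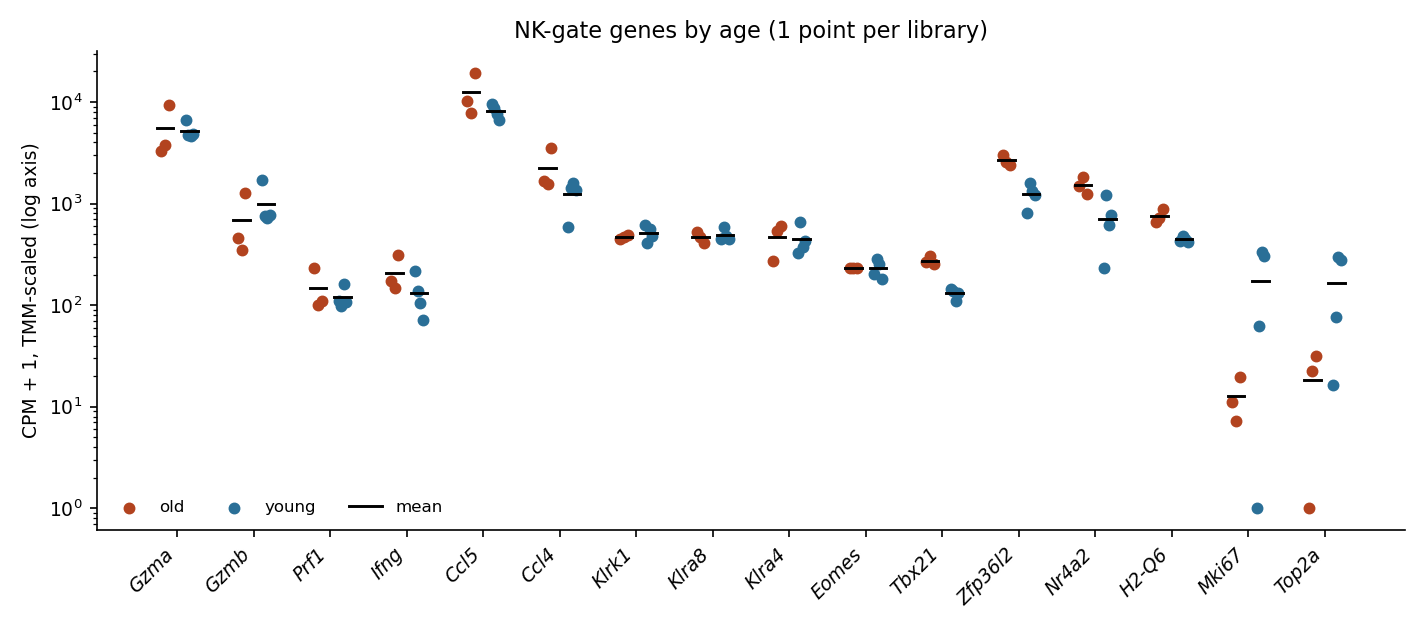
Levels of 16 genes in NK-gate cells (TMM-scaled CPM + 1, log axis; points: libraries, line: mean). Tbx21, Zfp36l2 and H2-Q6 were higher in all old than in all young libraries, Eomes and the Ly49 genes overlapped, and Mki67 and Top2a were high in young replicates 3 and 4.

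Of the activating receptors and their adaptors, 0 of 14 tested passed. NKG2D (Klrk1), which binds stress-induced ligands, had 447, 466 and 489 CPM in old libraries, against 609, 407, 567 and 480.4 CPM in young libraries (-0.16 ± 0.24, edgeR adjusted p = 0.908). CD94 (Klrd1), the partner of the NKG2 receptors, averaged 657 ± 20.2 CPM in old and 657 ± 217 CPM in young libraries (edgeR adjusted p = 0.998). The signalling adaptors Fcer1g and Tyrobp had log2 fold changes of 0.11 and 0.11 (edgeR adjusted p = 0.936 and 0.926). The nearest to a call were the adhesion receptor Cd2 (0.67, edgeR adjusted p = 0.471) and the NKG2D adaptor Hcst (0.48, adjusted p = 0.511). Klre1 had 335, 429 and 464 CPM in old libraries, against 646, 479.9, 504 and 482 CPM in young libraries. The ages did not overlap for Klre1, but the test did not call it (-0.37 ± 0.24, edgeR adjusted p = 0.701).

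The Ly49 family, lectin-like receptors encoded by the Klra genes on chromosome 6, many of them for MHC class I, is known for patchwork expression among NK cells. These genes are near-identical copies, so reads may have been split or lost among them and each level is uncertain. Detection shares cannot tell such a patchwork from UMIs missed by sampling, so it was not tested here. In thinned cells Klra8 (Ly49H) was seen in 35.7%, 37.3% and 28.8% of old NK cells, against 44.4%, 51.3%, 51.9% and 36.1% of young NK cells. It was seen in 0.241% of CD8 T cells. Its CPM did not pass the age test (528, 466 and 410.1 in old, against 449, 587, 483 and 449.7 in young libraries; edgeR adjusted p = 0.939), and without thinning the shares averaged 42.9% in old and 55.6% in young libraries. A mean of 1.36, 1.80 and 1.54 of 9 Klra genes was seen per thinned cell in the old libraries, against 1.74, 2.07, 2.07 and 1.82 in the young libraries, so the ages overlapped. Klra4, Klra7 and Klra9 had log2 fold changes of 0.09, 0.07 and -0.22 (edgeR adjusted p = 0.967, 0.972 and 0.908). Of 13 tested members of a list of Ly49, other lectin-like and further receptors, not all of them inhibitory, 0 passed. Nearest was Klrb1b, an inhibitory receptor next to the gate gene Klrb1c. It had 304, 188 and 298 CPM in old libraries, against 155, 116, 166 and 141 CPM in young libraries (0.84 ± 0.26, edgeR adjusted p = 0.180). Klri2 followed at 0.44 (adjusted p = 0.685).

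Cell cycle genes were lower on average in old libraries, but the young libraries differed widely and calls depended on the setting. All 15 tested members of the proliferation list had this direction (median log2 fold change -1.58, against 0.02 over all genes) and 0 passed with all libraries. Mki67, the classic marker of dividing cells, had 10.1, 6.17 and 18.7 CPM in the old libraries, against 0, 61.3, 333 and 302 CPM in the young libraries (-3.71 ± 0.94, edgeR adjusted p = 0.0719, against 0.00392 without young replicate 1 and 1.95e-14 without the expression filter). The young libraries differed widely: replicate 1 had 0 UMIs while replicates 3 and 4 were high. Young replicates 3 and 4 also had the deepest NK cells, with medians of 9492 and 9498 UMIs. Top2a, which untangles replicated DNA, had 0, 21.6 and 30.7 CPM in old libraries, against 15.5, 75.9, 296 and 278 CPM in young libraries (-2.87 ± 0.73, edgeR adjusted p = 0.0728, against 0.00587 without young replicate 1 and 1.89e-10 without the expression filter). Most alternatives left both genes uncalled: Mki67 passed in 3 of 13 and Top2a in 3 of 14 that had a value. Their adjusted p (edgeR or DESeq2) reached 0.295 and 0.278. The fit without the expression filter called 320 genes in all, against 69 with it. A UMI of either gene was found in 7.14%, 7.84% and 4.24% of thinned old NK cells, against 3.70%, 5.88%, 18.5% and 22.95% of thinned young NK cells; without thinning the shares were 7.14%, 13.7% and 9.76% in old, against 7.14%, 12.4%, 33.3% and 34.4% in young libraries. The replication-linked histone gene Hist1h2ae, one of the genes that fell, had 10.1, 3.08 and 4.01 CPM in the old libraries, against 10.3, 37.0, 95.003 and 66.7 CPM in the young libraries (-3.61 ± 0.72, edgeR adjusted p = 0.0245). Without mixed cells its log2 fold change was -3.71 (edgeR adjusted p = 0.0735), and leaving out any single old library ended the call, with an adjusted p of at most 0.150. Histone genes are close copies of each other, which makes their counts uncertain.

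Transcription factors other than Tbx21 did not pass. Eomes (chromosome 9, 118478212 to 118486132) had 233, 231 and 232 CPM in the old libraries, against 201, 284, 256 and 181 CPM in the young libraries (-0.02 ± 0.25, edgeR adjusted p = 0.994). Of 21 tested factors 1 rose and 0 fell, beside 0.0788% and 1.28% of all genes tested. Of 9 late maturation genes 0 passed, with Ly6c2 (1.21, edgeR adjusted p = 0.416) and the inhibitory receptor Klrg1 (0.54, adjusted p = 0.718) nearest. Of 8 early maturation genes 0 passed, with Emb (0.74, adjusted p = 0.579) and Tcf7 (0.70, adjusted p = 0.620) nearest. The integrin Itga2 (CD49b) averaged 31.1 ± 21.2 CPM in old and 29.4 ± 12.4 CPM in young libraries (edgeR adjusted p = 0.970). Tmem176b and Tmem176a, the ILC1-list genes nearest to a call, stood at 0.66 (adjusted p = 0.606) and 0.34 (0.837).

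Among the remaining lists the interferon, heat shock and metabolic lists had 1 member each that fell and 0 that rose, of 12, 12 and 14 tested, beside 1.28% of all genes that fell. They were Rsad2 (-3.87), Hspb1 (-2.17, edgeR adjusted p = 0.0384) and the fatty acid transporter Cd36 (-1.70, edgeR adjusted p = 0.00763). All 3 were highest in endothelial cells, by 4.57, 9.15 and 8.83 times the NK level. Cd36 turned to 1.82 without mixed cells (edgeR adjusted p = 0.542). Of 16 MHC class I genes 0 passed and 12 were higher in old libraries. The one nearest to a call was H2-Q6, with 660, 728 and 880 CPM in old libraries, against 429, 483, 446 and 418 CPM in young libraries (0.75 ± 0.22, edgeR adjusted p = 0.137), followed by H2-Q4 (0.55, adjusted p = 0.471). Both belong to a family of near-identical genes, so their counts are uncertain.

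Of 21 immediate early genes 0 passed. With all cells 14 were higher and 7 lower in old libraries (median log2 fold change 0.26, against 0.02 over all genes). Without mixed cells 19 were higher and 2 lower (median 0.73, against 0.02), beside 52.3% of all genes that were higher. No test was run on the list. Nr4a2, a nuclear receptor induced by stimulation, had 1492, 1839 and 1245 CPM in the old libraries, against 232, 1211, 618 and 763 CPM in the young libraries, without overlap (1.08 ± 0.36, edgeR adjusted p = 0.248, against 0.0445 without young replicate 2). Nr4a2 passed in 3 of 17 alternatives, and its adjusted p (edgeR or DESeq2) reached 0.801. The stress factor Atf3 stood at -1.28 (adjusted p = 0.311) and at -0.09 without mixed cells, and passed without young replicate 1 (edgeR adjusted p = 0.0293). Of 16 trafficking receptors 0 passed, with the lymph node egress receptor S1pr1 at -1.69 (edgeR adjusted p = 0.131) and the retention antigen Cd69 at 0.75 (adjusted p = 0.397). S1pr1 was 6.46 times higher in endothelial than in NK cells, passed without young replicate 2 (edgeR adjusted p = 0.0381) and did not reach the expression filter without mixed cells. Of 19 cytokine receptor and signalling genes 0 passed, with the TGF-beta inhibitor Smad7 at 1.02 (adjusted p = 0.187) and Il21r at 1.12 (adjusted p = 0.439). Of 10 senescence genes 0 passed. The senescence marker Cdkn2a (p16) had 0 UMIs in all 3 old libraries, against 0, 0, 5.28 and 2.67 CPM in the young libraries, and was not tested. Cdkn1a (p21) averaged 233 ± 74.7 CPM in old and 204 ± 136 CPM in young libraries (edgeR adjusted p = 0.970). Gadd45a and Cdkn2d were nearest to a call, at 1.03 (adjusted p = 0.325) and 0.93 (adjusted p = 0.375).

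The third comparison set the age change of NK cells against that of CD8 T cells of the same libraries, with library as a term. The CD8 gate held 383, 216 and 371 cells in the old libraries, against 12, 60, 105 and 112 in the young libraries. Of 8252 genes, 17 had an age change that differed between the classes by edgeR's quasi-likelihood test (0.206%), all with the lower change in NK cells (650 at an unadjusted p under 0.05). Without the mixed cells 13 genes were called, 8 of them among the 17. Of the 13, 11 had the lower change in NK cells and 2, Rgcc (1.94) and Gramd1a (1.49), the higher one. The count was 5 without old replicate 1, 2 without old replicate 2, 36 without young replicate 1, 77 without young replicate 2 and 4 without young replicate 3.

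Eomes differed most clearly. In NK cells it stood at 204, 226 and 227 CPM in the old libraries, against 186, 270, 245 and 172 CPM in the young libraries (scaled over both classes). In CD8 T cells it stood at 318, 379 and 189 CPM in the old libraries, against 43.6, 46.3, 44.5 and 24.0 CPM in the young libraries. The NK levels overlapped between ages, while every old CD8 level was above every young one. The difference in log2 age change was -2.89 ± 0.31 (edgeR adjusted p = 0.000366), and it passed in all 15 alternatives, with the adjusted p at most 0.0122. In thinned cells an Eomes UMI was found in 32.3%, 43.7% and 24.7% of old CD8 T cells, against 16.7%, 5.08%, 0.952% and 2.68% of young CD8 T cells; the unthinned means were 54.0% in old and 13.8% in young libraries. In thinned NK cells the share was 28.6% to 29.4% in old and 27.9% to 45.4% in young libraries. The make-up of the CD8 gate also differed between libraries. Ccl5, an effector gene, was seen in 93.4%, 96.7% and 73.4% of thinned old CD8 T cells, against 91.7%, 66.1%, 16.2% and 18.75% of thinned young CD8 T cells. Ccr7, a homing receptor of naive T cells, had 162, 52.6 and 204 CPM in old CD8 T cells, against 44.9, 142, 1156 and 926 CPM in young CD8 T cells. Lef1, a transcription factor of naive T cells, had 120.3, 72.7 and 151 CPM in old CD8 T cells, against 112, 142, 466 and 359.5 CPM in young CD8 T cells. Young replicates 3 and 4 thus stood apart from young replicates 1 and 2, and the part of this make-up in the differences between NK and CD8 T cells was not tested.

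A further 7 genes were called both with and without mixed cells, and they were chosen for naming after their values were seen. Ccr2, the receptor for monocyte chemoattractants, had 204, 412 and 147 CPM in old NK cells, against 105, 283, 346 and 307 CPM in young NK cells. In CD8 T cells Ccr2 had 48.7, 96.5 and 67.4 CPM in old libraries, against 21.8, 29.0, 13.0 and 7.98 CPM in young libraries (difference -2.65 ± 0.44, edgeR adjusted p = 0.0177). The ages overlapped in NK cells and did not overlap in CD8 T cells. The same held for Serpina3g, a serine protease inhibitor (-3.02 ± 0.53, edgeR adjusted p = 0.0257), and Cmtm7 (-1.61 ± 0.32, edgeR adjusted p = 0.0492). The stress-induced gene Ier3 differed by -3.12 ± 0.39 (edgeR adjusted p = 0.00104) and passed in all 15 alternatives. Ier5l, Cxcl10 and Hist1h2ap differed by -2.29, -3.60 and -3.66 (edgeR adjusted p = 0.0442, 0.0189 and 0.0260). Apart from Ier3, each of these 7 genes lost its call without old replicate 1, without old replicate 2, without young replicate 3 and without young replicate 4, with an adjusted p of at most 0.371 over all alternatives. Dll4, Rsad2, Lmo1 and Iigp1, the largest differences, stood at -6.64, -5.31, -4.29 and -3.71, and without mixed cells Dll4 did not reach the expression filter and the other 3 were not called. Without mixed cells the difference was -4.10 for Lmo1 (edgeR adjusted p = 0.370), close to the value with all cells, -2.89 for Rsad2 (0.582) and -1.49 for Iigp1 (0.713). All 4 were higher in the endothelial gate than in NK cells, by 4.06 to 9.25 times.

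**Figure D5:**
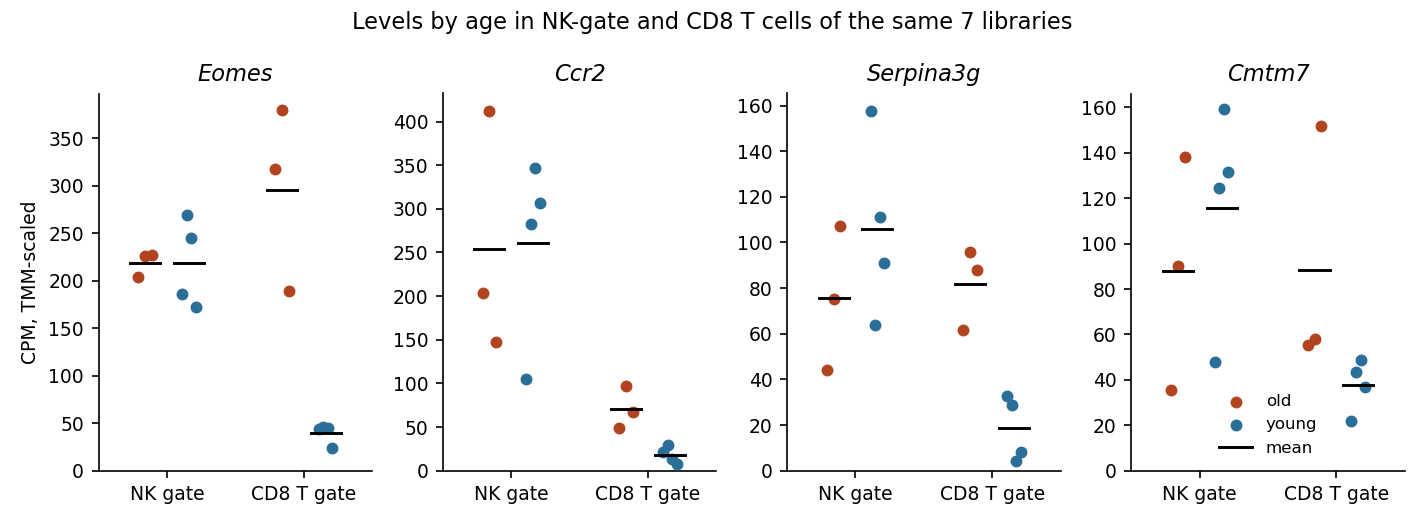
Levels of Eomes, Ccr2, Serpina3g and Cmtm7 (TMM-scaled CPM; points: libraries, line: mean) in NK-gate and CD8 T cells of the same 7 libraries. In CD8 T cells every old library lay above every young library for all 4 genes, while the NK levels overlapped between ages.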

How the data were processed

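The deposited files hold whole-number UMI counts per gene and barcode for 7 libraries; the submitters' processing notes name Cell Ranger 4.0.0 and mm10 as what the authors used. Other settings are not given in the sources used here. Barcodes with at least 500 UMIs, 300 genes and at most 15% mitochondrial UMIs were kept. The gate, the gene lists and the rules were chosen with earlier results of these data known. UMIs were summed per library over gated cells and tested with edgeR 4.0.16 in R 4.3.3 (filterByExpr, TMM scaling, quasi-likelihood test, 2-sided, age as the only term; for NK against CD8 T cells, library, class and class by age). Levels by age are TMM-scaled CPM; marker levels and marker sums are unscaled CPM. NK shares were compared with exact permutation tests on log2 values, with 0.5 added to the NK count. The shares leaning to conventional NK or to ILC1 were compared by the same test on plain percentages.

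Doublets were scored with Scrublet in scanpy 1.11.5 at 0.8% per 1000 barcodes and kept in the main results. Detection shares were read on cells thinned to 2000 UMIs. The tests were tried on simulated data first. Named genes were the 10 largest rises and falls that passed, did not overlap, reached 20 CPM and had no gate with over 10 times their level among others (T, B, macrophage, progenitor, endothelial, neutrophil). To these came the 4 lowest p among those left out, up to 4 passing members of each list (otherwise the 2 lowest p), and a fixed set. Alternatives were RLE factors, DESeq2 1.42.0, no expression filter, each library left out, doublets left out, stricter cells (500 genes, 5% mitochondrial), a stricter gate, thinned counts and a replicate block; leaving out mixed cells was added after seeing the data. Locations are from GENCODE release M21 (GRCm38, mm10). The labels name no batch.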

Additional observations from a re-analysis of the deposited data

Results flagged for a closer look

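The following 4 genes stood out in young replicate 1, whose value lay far from the other 3 young libraries: Gzma at 6703 CPM, Gzmb at 1699 CPM, Klre1 at 645.5 CPM and Unc13d at 67.1 CPM. Cxcr6 also lay apart there, at 51.6 CPM, on a library of 28 NK cells. Postn lay apart in young replicate 3, at 129 CPM. Of 72 sets of 4 young values examined, 6 were picked out this way, and chance picks out about 1 in 20.

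The age change differed between NK and CD8 T cells, by the test of the difference itself, for Dll4 (-6.64), Rsad2 (-5.31), Lmo1 (-4.29), Iigp1 (-3.71), Hist1h2ap (-3.66), Cxcl10 (-3.60), Ier3 (-3.12), Serpina3g (-3.02), Eomes (-2.89), Ccr2 (-2.65), Ier5l (-2.29) and Cmtm7 (-1.61), each a difference in log2 fold change of old over young.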

How the results depend on the processing

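The number of genes changed with age was 69, and 65 with RLE factors, 84 with DESeq2 and 54 with the stricter gate. It was 320 without the expression filter, 16 without doublets, 4 with stricter cells, 3 without stromal-rich cells, 1 without mixed cells and 0 on thinned counts, and 12 to 110 with each library left out. For the difference between NK and CD8 T cells the count was 17, and 10 with DESeq2, 209 without the filter, 6 with stricter cells, 8 with the stricter gate and 2 to 77 with each library left out. With each library left out, the difference in log2 NK share ran from -1.44 to 0.16 for kept cells (positive without old replicate 1), from -2.32 to -0.87 for Ptprc-positive cells and from -2.42 to -1.40 for gated lymphocytes. Without an old or a young library the exact permutation test cannot go below 0.0667 or 0.10, so these p-values say nothing of stability; of the alternatives with all 7 libraries and no block, none reached 0.05. The conventional share differed by 0.31 percentage points, and by -3.47 on full counts, -0.82 with the stricter gate, -0.60 without doublets, -0.66 without mixed cells, -2.09 with small differences in neither, 3.38 with stricter cells and -1.44 to 2.72 with each library left out. The ILC1 share differed by -0.92, by 2.66 on full counts, and by -2.62 to 0.91 with each library left out; the cause was not tested. Cd36 turned to 1.78 without stromal-rich and 1.82 without mixed cells. Replicate numbers were shared by both ages, but same-numbered libraries correlated at 0.033, 0.043 and 0.048 only. With a replicate block 81 genes were called, and the log2 share differences were -0.66, -1.62 and -2.02 (smallest possible exact p 0.25). The block ended the calls of Tbx21 (edgeR adjusted p = 0.157) and Robo4 (0.103), and Mki67 (0.00149), Top2a (0.00226) and Nr4a2 (0.0485) passed. The 14 cells of old replicate 1 limit what can be seen of rare genes.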

Other observations

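A further NK gene was uneven between young libraries. S1pr5, a receptor that mature NK cells use to leave lymphoid organs, was seen in 0%, 5.88% and 4.24% of thinned old NK cells, against 25.9%, 1.68%, 0% and 0% of thinned young NK cells. The 25.9% was young replicate 1, the library also highest in Gzma and Itgam among young libraries, and the share in CD8 T cells was 0.803%. No test was run on these shares.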
